A study of Mus musculus with 7 samples.

Results

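CD24+CD49f+ fetal mammary stem cells (fMaSC) were compared with the CD24low stroma sorted beside them, in 4 of the 7 libraries of a mouse RNA-seq series. The 4 columns were chosen by their labels: 2 libraries of CD24+, CD49f+, lineage-negative cells and 2 libraries of CD24low, lineage-negative cells. All 4 came from primary cells of CD1 mouse embryos at E17.5, late in gestation, and the labels name no transgene, allele or treatment for either group. The other 3 libraries, 2 of Sox10-Venus+ EpCAM+ fMaSC and 1 of EpCAM-negative, Sox10-negative stroma from the same strain and day, were used where the 2 sorts were set side by side. Of 38579 gene entries, 13815 reached 1 FPKM (fragments mapped to a gene, scaled by the length of its transcript and by the size of the library) in at least 2 of the 4 libraries and were tested. The labels speak of biological replicates without naming embryos or litters, so the p-values measure the spread between these libraries.

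The mammary gland of the late mouse embryo is a small branching epithelial rudiment embedded in a dermal and fat pad mesenchyme. CD24, a small glycoprotein linked to the membrane by a lipid anchor, marks its epithelium, and CD49f, the integrin alpha 6 chain, links epithelial cells to laminin in the basement membrane. The mesenchyme around it makes the fibrillar matrix, develops into fat, and exchanges growth factors with the epithelium.

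Estimated depth ran from 24600000 to 37200000 fragments in the 4 libraries, by an approximate reading of the lowest values. Between 12864 and 13639 genes per library were at 1 FPKM or more. The share of mitochondrial genes was 17.9% and 9.94% of summed FPKM in fMaSC replicates 1 and 2, and 10.9% and 17.7% in stroma replicates 1 and 2. The summed FPKM itself was 752737 and 424984 in fMaSC and 387955 and 547649 in stroma, so a difference in FPKM depends on how libraries are scaled. The median log2 fold change of all genes tested was 0.12 with the deposited values, -0.11 when each library was scaled to the same sum, 0.02 with factors from the trimmed mean of M values (TMM) and -0.03 after quantile scaling. Where 2 pairs of values are joined by against, fMaSC replicates 1 and 2 come first and stroma replicates 1 and 2 second. Fold changes below are log2 differences of FPKM + 1, fMaSC minus stroma, which makes the folds of weakly expressed genes too small, and are to be read against these medians.

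The genes of the sort came first. Cd24a stood at 246 and 161 FPKM in the 2 fMaSC libraries and 5.97 and 12.1 FPKM in the 2 stroma libraries, which gives a difference of 4.39 on the log2 scale (SE 0.409) with an adjusted p of 0.00576 in limma. Itga6, which encodes CD49f, stood at 77.2 and 100 FPKM in fMaSC and 22.3 and 20.5 FPKM in stroma (log2 fold change 1.99, adjusted p = 0.016). The libraries of the groups did not overlap for either gene, and both genes follow the gate that defined the groups. Stroma was thus not devoid of Itga6 transcript. Of the lineage genes, Ptprc, the common leukocyte antigen CD45, was at or under 0.598 FPKM in all 4 libraries. Pecam1, the endothelial antigen CD31, stood at 4.27 and 5.27 FPKM in fMaSC and 4.5 and 2.16 FPKM in stroma, with overlapping groups (adjusted p = 0.541). The call of Itga6 ended without stroma replicate 1 or stroma replicate 2 (adjusted p 0.111 and 0.163).

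Across all genes, 839 passed an adjusted p of 0.05 in limma, 6.07% of those tested. Of these, 704 were higher in fMaSC (5.1%) and 135 were lower (0.977%), shares against which the list counts below are to be read. The number rested on single libraries: 911 were higher and 278 lower without fMaSC replicate 1, 1206 and 530 without fMaSC replicate 2, 375 and 34 without stroma replicate 1, and 283 and 27 without stroma replicate 2. In all 4 of these fits 286 of the 839 genes were called. It rested on the filter as well: without the minimum of 1 FPKM 134 were higher and 10 lower, and with a minimum of 5 FPKM 345 and 74. Of the 138 called genes named here, 88 were not called without the minimum, Cd24a and Itga6 among them. The 13815 genes included 4097 (29.7%) whose 2 fMaSC libraries both lay above both stroma libraries and 2486 (18%) whose libraries lay below. The balance of directions moved with the scaling: 480 higher and 180 lower when each library had the same sum, 668 and 199 with TMM factors, and 513 and 231 after quantile scaling. With 2 libraries against 2 an exact permutation test of a single gene cannot go below p = 0.333, so the calls rest on the variance that limma shares between genes.

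**Figure D1:**
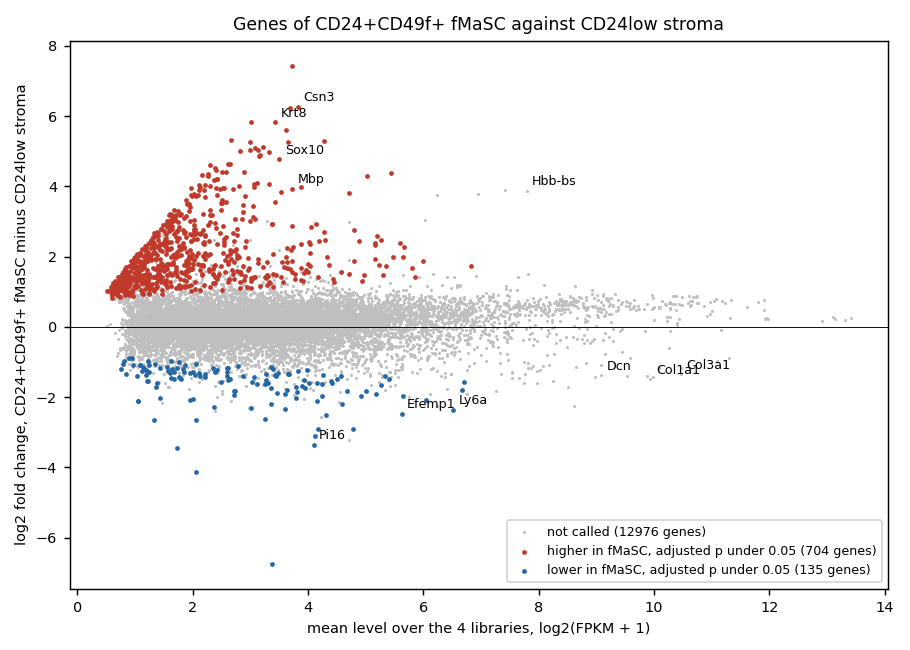
Each point is a gene, with its mean level over the 4 libraries on the horizontal axis (log2 of FPKM + 1) and its log2 fold change, fMaSC minus stroma, on the vertical axis. The 704 genes called higher (red) outnumber the 135 called lower (blue), and the most abundant matrix genes, such as Col1a1 at -1.49, lie below 0 without a call (grey).

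Among called genes with groups that did not overlap, a mean of at least 5 FPKM in the higher group and a symbol that is not provisional, the 15 with the largest folds towards fMaSC were Csn3, Epcam, Cytl1, Krt8, Krt18, Igfbp2, Krt14, Col9a3, Spint2, Plet1, Cldn4, Sfn, Cldn6, Aldoc and Cldn7, with log2 fold changes from 4.89 to 6.27. Csn3, which encodes kappa-casein, a milk protein that coats casein micelles, stood at 229 and 66.5 FPKM in fMaSC and 0.558 and 0.684 FPKM in stroma (adjusted p = 0.0055). Epcam, an epithelial adhesion protein, stood at 137 and 88.5 FPKM against 0.532 and 0.428 FPKM, with both fMaSC libraries far above both stroma libraries (log2 fold change 6.23, SE 0.285, adjusted p = 0.00225). Igfbp2, a secreted protein that binds insulin-like growth factors, was at 151 and 96.5 FPKM in fMaSC and 2.2 and 1.96 FPKM in stroma. Sfn, the epithelial 14-3-3 sigma protein, was at 49.2 and 40.4 against 0.576 and 0.245 FPKM, and the surface protein gene Plet1 at 56.9 and 41.3 against 0.733 and 0.191 FPKM. Igfbp2 had the highest stromal level of the 15, and each of these calls was made in every fit without 1 library. Without the minimum of 1 FPKM the call of Csn3 ended (adjusted p = 0.0603).

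By the same rule the 15 genes lower in fMaSC with the largest folds were Pi16, Cpa3, Tpsb2, Cma1, Akr1c18, Hdc, Cd55, Efemp1, Ly6a, Lrrn4cl, Adgrd1, Dpp4, Ly6c1, Wnt2 and Trf. Their log2 fold changes ran from -3.36 to -2.12, a shorter reach than in the other direction. Cpa3, Tpsb2, Cma1 and Hdc are genes of mast cells, and Pi16, Ly6a, Dpp4 and Cd55 are known from fibroblasts of the adventitia and fascia. All 15 were listed above 0 in both fMaSC libraries: Pi16 was at 6.11 and 3.05 FPKM there and 43.9 and 66.4 FPKM in stroma, and Trf, which encodes the iron carrier transferrin, at 10.2 and 5.56 against 38.9 and 33.5 FPKM. Ly6c1 has near-identical neighbours in its family, and the mast cell tryptases Tpsb2 and Tpsab1 are close copies, so the split of reads within each family is uncertain. The call of Trf ended without stroma replicate 1 (adjusted p 0.0822) and those of Akr1c18, Cd55, Efemp1, Ly6a, Dpp4, Ly6c1, Wnt2 and Trf without stroma replicate 2 (adjusted p 0.055 to 0.212).

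Keratins, the intermediate filaments of epithelia, were compared by layer. Of the simple and luminal keratins 3 of 4 tested genes were higher in fMaSC and none was lower, with a median log2 fold change of 4.13. Krt8 stood at 108 and 59.7 FPKM in fMaSC and 0.498 and 0.367 FPKM in stroma (adjusted p = 0.00225), its partner Krt18 at 119 and 60.5 against 0.839 and 0.683 FPKM, and Krt23 at 6.7 and 4.3 against 0 and 0.0287 FPKM. Krt19 was not called, at 12.9 and 4.26 FPKM in fMaSC and 1.35 and 0.797 FPKM in stroma (adjusted p = 0.0791). Of the basal and stratified keratins 4 of 5 were higher, with a median of 3.91. Krt14 stood at 63.9 and 37.2 FPKM against 0.326 and 0.249 FPKM, its partner Krt5 at 21 and 20.6 FPKM against 0.0985 and 0.0198 FPKM, Krt17 at 22.6 and 12.5 against 0.144 and 0.232 FPKM and Krt15 at 3.28 and 2.23 against 0 and 0.0261 FPKM. Keratins of both layers were therefore present in the same sorted fraction, with Krt8 and Krt18 higher in FPKM than Krt5 and Krt14 in each fMaSC library. In a panel of 7 basal markers 5 were called higher, beside 5.1% of all genes. The other members, Acta2 and Myh11, had negative folds, 1 of them with groups that did not overlap. In a panel of 8 luminal markers 5 were called higher, and 1 had a negative fold with groups that did not overlap.

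Genes of cell junctions were called higher in all 3 junction types examined, to be read beside the 5.1% higher over all genes. Of 16 tight junction genes tested, 12 were higher in fMaSC and none lower, and the median log2 fold change was 2.09 beside 0.12 over all genes. The claudins form the paracellular seal. Cldn4 stood at 58.8 and 41.1 FPKM in fMaSC and 0.729 and 0.342 FPKM in stroma (adjusted p = 0.00225), Cldn6, a claudin of embryonic epithelia, at 44.6 and 34.2 against 0.373 and 0.15 FPKM, and Cldn7 at 55.6 and 41.3 against 0.605 and 0.697 FPKM. Cxadr, Cldn3 and Ocln followed, with log2 fold changes of 3.92, 3.45 and 3.18. The 4 members without a call included Cldn1, a claudin of skin and other epithelia, at 8.08 and 10.5 FPKM in fMaSC and 4.44 and 5.14 FPKM in stroma (adjusted p = 0.137).

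In the adherens junction and polarity list 9 of 18 genes were higher, beside 5.1% of all genes, and none lower (median 1.19). Cdh1, which encodes E-cadherin, stood at 23.7 and 30.1 FPKM in fMaSC and 0.435 and 0.178 FPKM in stroma (log2 fold change 4.41, adjusted p = 0.00225). Cdh3, P-cadherin of basal and bud epithelium, stood at 8.95 and 14.8 FPKM against 0.122 and 0.105 FPKM. Lsr, a receptor of tricellular junctions, Crb3, an apical polarity protein, and Nectin4, an adhesion molecule, had log2 fold changes of 4.04, 2.97 and 2.14. The catenins, which join cadherins to actin in many cell types, were not called: Ctnnb1 was at 144 and 179 FPKM in fMaSC and 101 and 86.1 FPKM in stroma, and Ctnna1 at 51.5 and 61.7 against 34.2 and 31.3 FPKM. Among 9 desmosome genes tested, 7 were higher (median 2.88), led by Perp (4.65), the plakophilin Pkp3 (4.20) and desmoplakin, Dsp (3.73). Dsc2 and Dsc3, desmocollins, were not called (adjusted p = 0.141 and 0.0635).

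Genes of attachment to the basement membrane were next. Of 11 hemidesmosome and laminin genes tested 6 were higher in fMaSC, with a median of 1.99, and 0 without the minimum of 1 FPKM, where the adjusted p was 0.0577 for Itgb4 and 0.054 for Lama5. Itgb4, the partner of CD49f in hemidesmosomes, stood at 11.1 and 14.6 FPKM in fMaSC and 0.791 and 0.215 FPKM in stroma, a larger fold (3.22, adjusted p = 0.00491) than that of Itga6 itself, and the difference between the 2 folds was not tested. Lama5, a laminin chain of epithelial basement membranes, was at 13.9 and 13.1 against 2.41 and 1.84 FPKM. The widely expressed linkers Plec and Dst were not called (0.85 and 0.40). The call of Itga6 ended without stroma replicate 1 (adjusted p 0.111) and those of Lama5 and Itga6 without stroma replicate 2 (adjusted p 0.0516 to 0.163).

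Of 24 listed regulators of epithelial identity 20 were tested. Of these 18 were higher in fMaSC, none was lower, and the median was 2.88. Without the minimum of 1 FPKM 9 of the regulators were higher. A gene low in stroma could reach that minimum only through the fMaSC libraries, so the shares called in the epithelial lists depend on it. Sox10, a SOX factor known from neural crest and from the mammary rudiment, reached 58 and 58.7 FPKM in fMaSC and 1.55 and 0.848 FPKM in stroma (log2 fold change 4.77, SE 0.252, adjusted p = 0.00225). The fMaSC libraries of this sort, which did not use Sox10, lay within 1 FPKM of each other. The AP-2 factors Tfap2c, Tfap2a and Tfap2b had log2 fold changes of 4.54, 3.11 and 3.02. Esrp1, a splicing regulator of epithelia, stood at 15.1 and 17.9 FPKM against 0.103 and 0.0792 FPKM. Gata3, a luminal factor, stood at 14.6 and 17.1 FPKM against 0.457 and 0.139 FPKM, while Trp63, the basal factor p63, was at 3.6 and 5.1 FPKM against 0.532 and 0.649 FPKM. Ovol1, a regulator of epithelial differentiation, was also higher (3.19). The exceptions were Grhl1 (adjusted p = 0.0527) and Sox9, a SOX factor of many progenitors, which was at 13.2 and 26.4 FPKM in fMaSC and 13.1 and 14 FPKM in stroma. The call of Trp63 ended without stroma replicate 1 or stroma replicate 2 (adjusted p 0.0652 and 0.0673).

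The windows before the start sites of these genes are shown because many genes called higher shared a short motif there. The sequences are the 150 bases before the RefSeq start in GRCm38.p6, read 5′ to 3′ along the gene, and capitals mark CACCTG or its reverse complement CAGGTG, a form of the E-box that the repressors of the Snai and Zeb families are known to bind. The windows are chr17:87635829-87635978 (plus strand) for Epcam, chr5:134946935-134947084 (minus strand) for Cldn4, chr17:23679215-23679364 (plus strand) for Cldn6, chr15:102004343-102004492 (minus strand) for Krt8 and chr7:30973470-30973619 (minus strand) for Lsr. These 5 genes were picked after the matches were seen.
Epcam: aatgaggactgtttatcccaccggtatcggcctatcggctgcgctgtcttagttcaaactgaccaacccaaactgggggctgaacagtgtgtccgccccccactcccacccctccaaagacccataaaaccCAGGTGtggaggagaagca
Cldn4: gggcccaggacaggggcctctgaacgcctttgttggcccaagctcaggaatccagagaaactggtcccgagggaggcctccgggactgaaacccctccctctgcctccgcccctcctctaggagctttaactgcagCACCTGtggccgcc
Cldn6: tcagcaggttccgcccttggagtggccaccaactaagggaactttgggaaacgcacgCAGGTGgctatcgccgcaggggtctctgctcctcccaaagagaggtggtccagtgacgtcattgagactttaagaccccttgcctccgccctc
Krt8: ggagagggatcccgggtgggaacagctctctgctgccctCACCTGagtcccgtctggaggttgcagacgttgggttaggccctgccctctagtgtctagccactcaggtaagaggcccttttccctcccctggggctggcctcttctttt
Lsr: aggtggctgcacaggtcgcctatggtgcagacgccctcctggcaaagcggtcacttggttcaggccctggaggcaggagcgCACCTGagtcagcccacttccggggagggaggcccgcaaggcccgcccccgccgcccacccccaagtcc

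The match begins 19 bases before the start in Epcam, 14 in Cldn4, 93 in Cldn6, 111 in Krt8 and 69 in Lsr. Over the 250 bases before the first listed start of each gene, on both strands, CACCTG was present in 157 of the 510 windows (30.8%) found by symbol for genes called higher. It was present in 12 of 88 windows (13.6%) of genes called lower, in 1204 of 8975 windows (13.4%) of genes tested and not called, and in 17.2% of the 32851 windows of the table. It was 1 of 7 motifs searched, and it is described here because of these shares, so they carry no test. The other motifs follow as shares of genes called higher, called lower, tested and not called, and of all windows. AACCGGTT (a grainyhead motif) had 0%, 0%, 0.245% and 0.116%, and AACNNGTT, which includes it, 3.53%, 4.55%, 3.01% and 3.64%. GCCNNNGGC (AP-2) had 22%, 21.6%, 20.9% and 13.7%, and ACAAAG (SOX) 14.9%, 12.5%, 11% and 16.5%. TATAAA had 7.25%, 13.6%, 6.02% and 12.4%, and CCCGCC 57.1%, 44.3%, 60.2% and 32.5%. A match is a run of letters and was not tested for binding.

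Surface proteases and secreted products completed the epithelial side. Of 10 listed surface serine proteases and inhibitors 6 were tested, and all 6 were higher in fMaSC (median 3.23). The protease matriptase, St14, stood at 14.3 and 12.7 FPKM in fMaSC and 0.118 and 0.0259 FPKM in stroma, its inhibitors Spint2 and Spint1 at 59.5 and 49.2 against 0.715 and 0.466 FPKM and at 14.8 and 13.6 against 0.189 and 0.019 FPKM, and its partner protease Prss8 at 5.78 and 5.58 against 0.0395 and 0 FPKM. Protease and inhibitors were therefore higher in the same fraction. Of 16 listed milk and secretory genes 8 were tested. Of these 5 were higher, and 3 with a pseudocount of 5, where Wfdc18 and Lalba did not pass. Without the minimum of 1 FPKM 1 was higher. Wfdc18, of the whey acidic protein family, stood at 101 and 21.3 FPKM in fMaSC and 0.714 and 0.575 FPKM in stroma, and Lcn2, the iron-binding protein lipocalin 2, at 175 and 117 against 6.36 and 6.38 FPKM. Csn1s1, an alpha casein, was at 11.9 and 7.02 against 0 and 0.0322 FPKM and Lalba, alpha-lactalbumin, at 8 and 3.32 against 0.0597 and 0 FPKM, before any lactation. For Csn3, Wfdc18 and Lalba fMaSC replicate 1 was more than 2 times replicate 2, and both lay above both stroma libraries. Mfge8, a milk fat globule protein made by many cells, was at 46.4 and 48.4 FPKM in fMaSC and 50.3 and 62.9 FPKM in stroma (adjusted p = 0.7).

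Genes known from cartilage were higher in fMaSC in 6 of 9 cases (median 3.30). All 3 chains of collagen IX were among them: Col9a3 stood at 89 and 65.5 FPKM in fMaSC and 1.1 and 0.966 FPKM in stroma, Col9a2 at 24.5 and 22.3 against 1.62 and 0.841 FPKM, and Col9a1 at 13.2 and 9.18 against 0.206 and 0.235 FPKM. Cytl1, a secreted protein first known from cartilage and bone marrow, was at 75.6 and 47.7 against 0.0416 and 0.0998 FPKM, and Cnmd, chondromodulin, at 24.9 and 14.3 against 0.201 and 0.245 FPKM. Col11a2, a chain of cartilage collagen XI, was not called, at 1.34 and 1.51 FPKM in fMaSC and 0.461 and 0.355 FPKM in stroma. Collagen genes thus lay on both sides of the comparison. Type IX was higher in fMaSC, and all 15 tested genes of the list of fibrillar and associated collagens had negative folds.

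**Figure D2:**
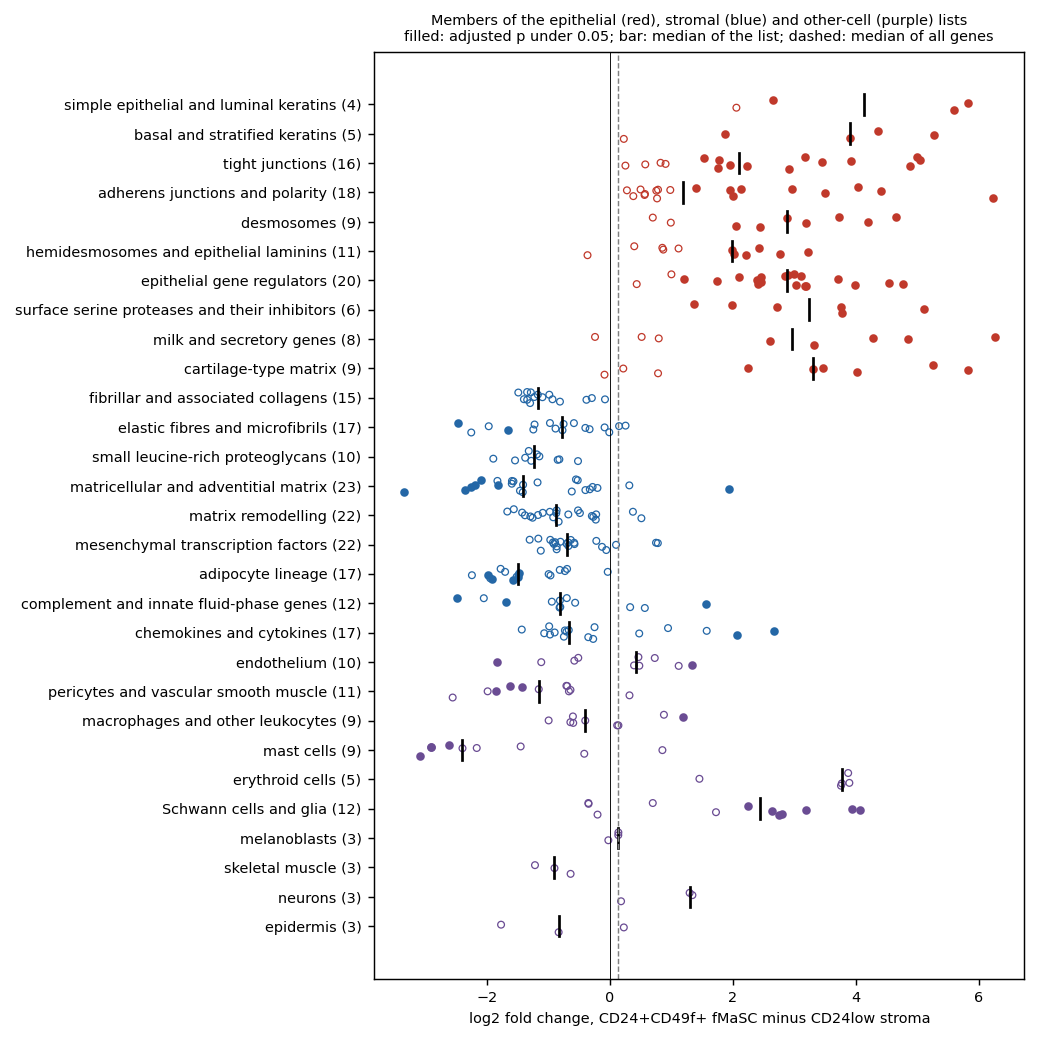
Each point is a tested member of a gene list, placed by its log2 fold change, fMaSC minus stroma. Filled points passed an adjusted p of 0.05, black bars are list medians, the dashed line is the median of all genes (0.12), and the number of tested members is in brackets. Most epithelial members are filled and lie to the right, while most stromal members lie to the left and are open.

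The fibrillar matrix differed in another way. With the deposited scaling none of 15 collagen genes passed the test, although all 15 had negative fold changes (median -1.17) and 11 had both fMaSC libraries below both stroma libraries, beside 18% of all genes. Col1a1 stood at 386 and 883 FPKM in fMaSC and 1877 and 1442 FPKM in stroma, so the groups did not overlap (log2 fold change -1.49, SE 0.698, adjusted p = 0.345). For the collagens, at an unadjusted p under 0.05, 0 were higher and 6 lower, and in the 7-library fit 0 and 1 passed. When each library had the same sum 8 of the 15 were lower, 7 when mitochondrial genes and globins were also left out (a setting chosen after seeing the data), and 3 without fMaSC replicate 2. Col3a1 was at 749 and 1058 FPKM in fMaSC and 2414 and 2132 FPKM in stroma (adjusted p = 0.393). Summed over the list, collagen FPKM was 2398 and 4116 in fMaSC and 8560.4 and 6827 in stroma. The small leucine-rich proteoglycans, which coat collagen fibrils, gave 0 calls of 10 (median -1.24), with all 10 not overlapping. Of the proteoglycans, at an unadjusted p under 0.05, 0 were higher and 7 lower, and in the 7-library fit 0 and 5 passed. When each library had the same sum 6 of the 10 were lower, 5 without mitochondrial genes and globins, and 2 after quantile scaling. Dcn, decorin, was at 316 and 356 FPKM in fMaSC and 730.3 and 1047 FPKM in stroma, and Lum, lumican, at 162 and 193 against 423 and 631 FPKM.

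Elastic fibre and adventitial genes followed. Of 17 elastic fibre genes 2 were lower and none higher: Efemp1, a fibulin, stood at 18.9 and 21.2 FPKM in fMaSC and 97.1 and 137 FPKM in stroma (log2 fold change -2.47, adjusted p = 0.0108), and Emilin2 at 16.6 and 25.5 against 72 and 62.1 FPKM. The 2 calls became 5 when each library had the same sum, 4 and 5 without fMaSC replicate 1 and 2, and 1 and 0 without stroma replicate 1 and 2. Fbn1, fibrillin 1, was at 16.9 and 34.7 FPKM in fMaSC and 111 and 87 FPKM in stroma without passing (adjusted p = 0.0543). Of 23 matricellular and adventitial genes 6 were lower and 1 was higher (median -1.42). The number lower was 14 when each library had the same sum, 10 without fMaSC replicate 2 and 1 without stroma replicate 2. Those lower with the deposited scaling were Pi16, Ly6a, Dpp4, Ly6c1, Cd34 and Ccn3. Dpp4, a surface peptidase, was at 1.87 and 0.934 FPKM in fMaSC and 8.48 and 12.5 FPKM in stroma, Cd34 at 33.5 and 29 against 129.8 and 143 FPKM, and Ly6a at 45.8 and 34.2 against 142 and 303 FPKM, where stroma replicate 2 was more than 2 times replicate 1. The single member higher in fMaSC was Ccn2, a matricellular protein induced by YAP and TGF-beta, at 69.7 and 69.6 FPKM in fMaSC and 20.5 and 14.7 FPKM in stroma (adjusted p = 0.0175). The calls of Emilin2, Cd34, Ccn3 and Ccn2 ended without stroma replicate 1 (adjusted p 0.0684 to 0.218) and those of Efemp1, Emilin2, Ly6a, Dpp4, Ly6c1, Cd34, Ccn3 and Ccn2 without stroma replicate 2 (adjusted p 0.055 to 0.212).

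Matrix remodelling enzymes gave 0 calls of 22 (median -0.87) and mesenchymal transcription factors 0 of 22 (median -0.69). Of the enzymes, at an unadjusted p under 0.05, 0 were higher and 13 lower, and in the 7-library fit 0 and 6 passed. Of the factors, at an unadjusted p under 0.05, 2 were higher and 8 lower, and in the 7-library fit 0 and 3 passed. Without fMaSC replicate 2, 8 of the enzymes were lower, and 13 of the factors were lower and 1 higher. Among the enzymes 3 were lower when each library had the same sum and 3 with TMM factors. Loxl1, which cross-links elastin, was at 18.6 and 28.7 FPKM in fMaSC and 89.7 and 64.2 FPKM in stroma (adjusted p = 0.0505). Among the factors, Zeb1 was at 6.04 and 12.8 against 24 and 18.7 FPKM (adjusted p = 0.178), Twist2 at 13 and 27.5 against 53 and 44.2 FPKM (adjusted p = 0.153), and Snai1 at 9.08 and 24.6 against 22.5 and 23.6 FPKM, where the groups overlapped. Snai2, a repressor that basal epithelium also makes, had the opposite sign, at 31.1 and 39.8 FPKM in fMaSC and 19.9 and 21.2 FPKM in stroma, and was not called (adjusted p = 0.19). For Zeb1, Twist2 and Snai1 fMaSC replicate 2 was more than 2 times replicate 1.

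Adipocyte lineage genes were lower in 5 of 17 cases, beside 0.977% of all genes. They were higher in none and negative in all 17 (median -1.49). The number lower was 10 when each library had the same sum, 11 in the 7-library fit, 10 and 9 without fMaSC replicate 1 and 2, and 0 without stroma replicate 1 and 0 without stroma replicate 2. Plin1, which coats lipid droplets, stood at 11.5 and 6.32 FPKM in fMaSC and 37.9 and 35.4 FPKM in stroma (adjusted p = 0.0264). Acsl1, which activates fatty acids, was at 18.5 and 17 against 69.4 and 69.9 FPKM, and Pparg, the master factor of fat cells, at 24.5 and 23.9 against 59 and 82.1 FPKM. Lpl and Cd36, which release and take up fatty acids, had log2 fold changes of -1.58 and -1.49. Fabp4, a fatty acid carrier, was at 388 and 103 FPKM in fMaSC and 557 and 774 FPKM in stroma and was not called, with fMaSC replicate 1 nearer to stroma than replicate 2. The call of Lpl ended without fMaSC replicate 1 (adjusted p 0.0885) and those of Plin1, Acsl1, Pparg, Lpl and Cd36 without stroma replicate 1 or stroma replicate 2 (adjusted p 0.0844 to 0.348 and 0.105 to 0.369).

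Genes of innate defence gave few calls, to be read against the 5.1% higher and 0.977% lower over all genes. In the complement list 2 of 12 were lower, Cd55 and C3, and 1 was higher, Clu, with 9 of the 12 folds negative. Cd55, a brake on complement at the cell surface, stood at 9.21 and 5.79 FPKM in fMaSC and 37.8 and 56 FPKM in stroma (adjusted p = 0.0146), C3 at 5.74 and 9.23 against 29.4 and 22.6 FPKM, and Clu, the secreted chaperone clusterin, at 25.1 and 27.7 against 6.71 and 10.2 FPKM. Without fMaSC replicate 2, 8 of the 12 were lower. In the chemokine list 2 of 17 were higher, Cx3cl1, a membrane-bound chemokine, at 9.03 and 10.3 against 0.738 and 0.591 FPKM and Cxcl14 at 8.26 and 6.16 against 1.08 and 0.823 FPKM, and none was lower. Inflammatory chemokines were abundant in both fractions and highest in stroma replicate 2: Ccl2 was at 391 and 355 FPKM in fMaSC and 477 and 1286 FPKM in stroma, and Cxcl1 at 499.7 and 597 against 592 and 1345 FPKM. The call of Clu ended without stroma replicate 1 (adjusted p 0.258) and those of Cd55, Clu and Cxcl14 without stroma replicate 2 (adjusted p 0.0606 to 0.0993). Clu was not called after each library was scaled to the same sum (adjusted p 0.315) or after quantile scaling (adjusted p 0.0581).

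Markers of cells outside both named populations came next. In bulk samples fewer cells of a type and less RNA per cell cannot be told apart. Schwann cell and glial genes were higher in fMaSC in 7 of 12 cases and lower in none (median 2.44). Mbp, a myelin protein, stood at 68 and 37.7 FPKM in fMaSC and 2.61 and 2.14 FPKM in stroma (log2 fold change 3.94, SE 0.334, adjusted p = 0.00435), and the artemin receptor Gfra3 at 13 and 15.4 against 0.765 and 0.571 FPKM. Foxd3, a neural crest factor, L1cam and Cdh19 were also higher, with log2 fold changes of 2.76, 2.64 and 2.24, and all 7 calls were made in every fit without 1 library, but 2 without the minimum of 1 FPKM. Dhh, the hedgehog ligand of Schwann cells, was the single called gene of 11 in the hedgehog list (6.07% of all genes were called), at 5.03 and 3.37 FPKM in fMaSC and 0.302 and 0.0911 FPKM in stroma. Pmp22, a myelin protein that fibroblasts also make, was not called, at 73 and 74 FPKM in fMaSC and 88.6 and 99.9 FPKM in stroma. In the other sort's fMaSC libraries Mbp was at 4.74 and 8.14 FPKM and Gfra3 at 0.751 and 1.24 FPKM, all below both CD24+CD49f+ libraries. Summed over the list the level was 321 and 287 FPKM in the CD24+CD49f+ libraries, 162 and 165 in CD24low stroma, and 40.9 and 56.1 in Sox10+EpCAM+ fMaSC. The sums depend on the genes chosen. A panel of 8 Schwann cell markers, with Sox10 and Erbb3 but without Pmp22, summed to 253 and 191 FPKM in the CD24+CD49f+ libraries. The panel summed to 11.3 and 11.1 FPKM in CD24low stroma and 153 and 170 FPKM in Sox10+EpCAM+ fMaSC. Sox10 is itself a Schwann cell gene, and the part of such cells in its level here was not tested.

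Mast cell genes were lower in fMaSC in 4 of 9 cases (median -2.40), and in 7 without fMaSC replicate 1 and 2 without the minimum of 1 FPKM. Over all genes 0.977% were lower. Cpa3, a mast cell carboxypeptidase, stood at 5.75 and 4.24 FPKM in fMaSC and 50.8 and 49 FPKM in stroma (log2 fold change -3.10, adjusted p = 0.00361). Cma1, a chymase, was at 9.75 and 8.27 against 86 and 63.5 FPKM, the tryptase Tpsb2 at 5.82 and 5.37 against 72 and 33 FPKM, and Hdc, which makes histamine, at 2.92 and 2.74 against 34.3 and 14.9 FPKM. Stroma replicate 1 was above replicate 2 for all 4 genes. Tpsab1, at 1.17 and 1.4 against 19.6 and 6.07 FPKM, did not pass (adjusted p = 0.0603), and the IgE receptor genes Fcer1a and Ms4a2 stayed at or under 0.143 FPKM in all 4 libraries. The other sort had little of this signal on either side: in EpCAM-negative stroma Cpa3 was at 2.35 FPKM and Cma1 at 4.92 FPKM, and in Sox10+EpCAM+ fMaSC Cpa3 was at 0.599 and 2.87 FPKM. The difference of the Cpa3 folds between the sorts was -2.67 on the log2 scale, with an adjusted p of 0.126. Of macrophage genes, the complement components C1qa, C1qb and C1qc were at 0 in fMaSC replicate 2. A panel of 7 macrophage markers, 1 of them tested, summed to 5.42 and 2.49 FPKM in fMaSC and 5.97 and 2.64 FPKM in stroma.

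Erythroid genes were highest in a single library, fMaSC replicate 1. None of the 5 tested was called (median 3.77), though all 5 had both fMaSC libraries above both stroma libraries, beside 29.7% of all genes. Among them, at an unadjusted p under 0.05, 5 were higher and 0 lower, and in the 7-library fit 0 and 0 passed. All 5 were called higher when each library had the same sum, and also without fMaSC replicate 1 and without fMaSC replicate 2. Hbb-bs, an adult beta globin, stood at 2677 and 269.5 FPKM in fMaSC and 37.9 and 85.3 FPKM in stroma (adjusted p = 0.136), and Hba-a1 at 1984 and 217 against 32 and 58.2 FPKM. In both genes fMaSC replicate 1 was far above replicate 2, and the list summed to 6869.9 FPKM in fMaSC replicate 1 against 731 in replicate 2. The alpha globin copies Hba-a1 and Hba-a2 are near-identical, as are the beta globin copies Hbb-bs and Hbb-bt, so the split between them is uncertain. Left out together with the mitochondrial genes, and with each library scaled to the same sum, the globins left 535 genes higher and 228 lower, a setting chosen after seeing the data.

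Vessel and remaining cell types gave few calls, and lists with 1 or 2 calls are to be read against the 5.1% higher and 0.977% lower over all genes. Endothelial genes gave 1 lower, the angiopoietin receptor Tek (1.99 and 3.11 FPKM in fMaSC and 10.5 and 12.6 FPKM in stroma), and 1 higher, Cldn5 (9.96 and 7.83 against 3.29 and 2.51 FPKM), of 10. Pericyte genes were lower in 3 of 11 cases, Kcnj8, Pdgfrb and Abcc9, with log2 fold changes of -1.86, -1.63 and -1.43, and in 8 without fMaSC replicate 1. Among 9 leukocyte genes tested 1 was higher, Cd79a, at 4.36 and 3.89 against 1.37 and 1.15 FPKM. No tested gene of the melanoblast, skeletal muscle, neuron or epidermis lists was called in limma, with 3 tested in each, and the counts at an unadjusted p under 0.05 were 0, 3, 2 and 1. The neurofilament Nefl was at 6.55 and 2.5 against 0.949 and 1.11 FPKM. The calls of Tek, Cldn5, Kcnj8, Pdgfrb, Abcc9 and Cd79a ended without stroma replicate 1 or stroma replicate 2 (adjusted p 0.0531 to 0.221 and 0.0819 to 0.298). Cldn5, Abcc9 and Cd79a were not called after each library was scaled to the same sum (adjusted p 0.141 to 0.68).

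**Figure D3:**
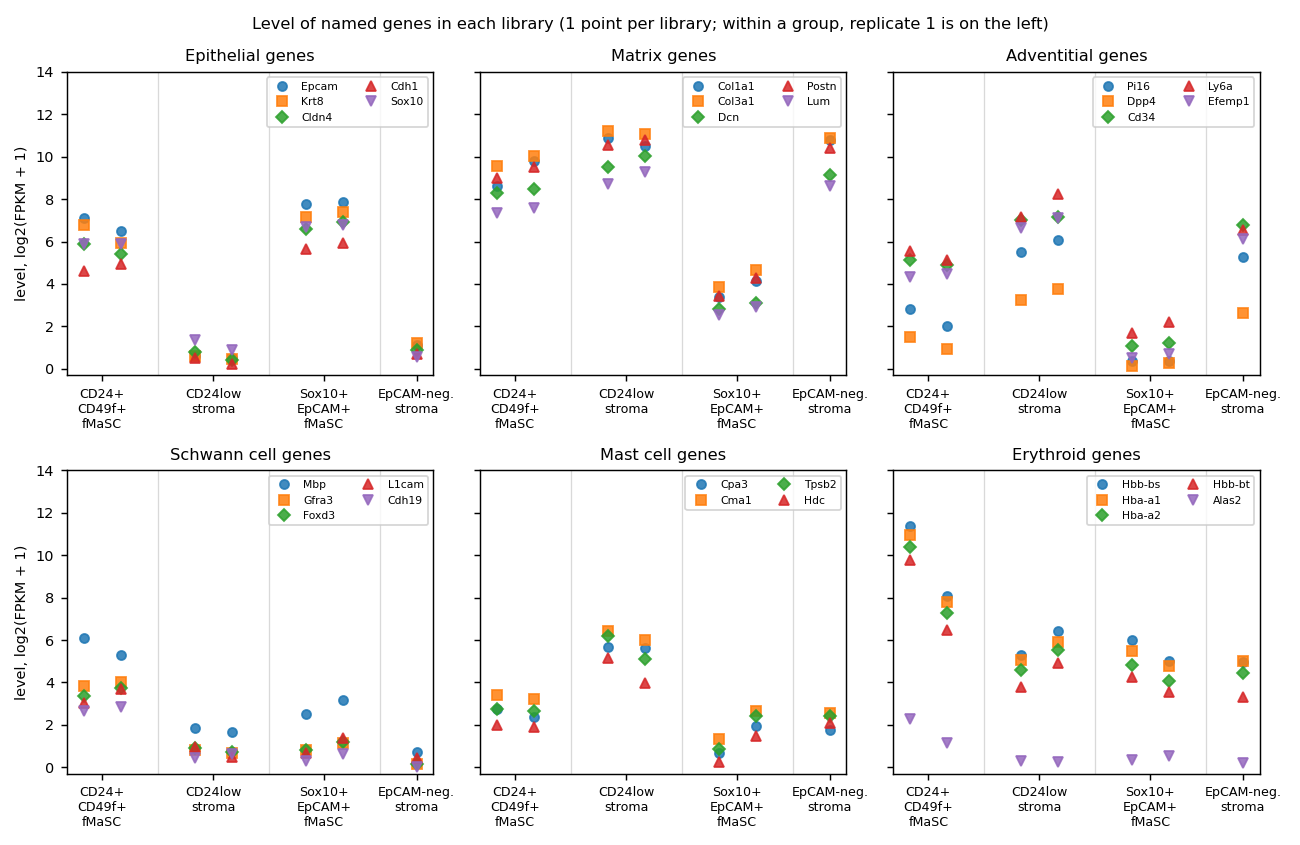
Level of named genes as log2 of FPKM + 1 in each of the 7 libraries, 1 panel per gene group and 1 point per library and gene. Among the genes shown, matrix genes are high in both fractions of the CD24 sort and low in Sox10+EpCAM+ fMaSC. The Schwann cell genes chosen are highest in CD24+CD49f+ fMaSC, which Pmp22 and Erbb3, not shown, are not. The mast cell genes chosen are highest in CD24low stroma, and globins are highest in CD24+CD49f+ fMaSC replicate 1.

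Ligands and receptors were ordered by pathway. In the ErbB family, which drives epithelial growth, 5 of 6 ligands tested were higher in fMaSC (median 2.27). Tgfa stood at 17.6 and 22.3 FPKM in fMaSC and 0.326 and 0.354 FPKM in stroma (adjusted p = 0.00225), Epgn, epigen, at 16.4 and 5.4 against 0.0627 and 0.0755 FPKM, Areg, amphiregulin, at 6.73 and 4.81 against 0.227 and 0.35 FPKM, and the neuregulin Nrg1 at 4.78 and 4.95 against 0.429 and 0.207 FPKM. Nrg2 was also higher (1.43). Of the receptors Erbb3, which binds neuregulins, was higher at 18.2 and 26.1 FPKM against 0.633 and 0.335 FPKM. Egfr, the receptor of Tgfa and Areg, was at 5.24 and 12.8 FPKM in fMaSC and 11.8 and 11.9 FPKM in stroma, without a call. Erbb3 is also a gene of Schwann cells, and in Sox10+EpCAM+ fMaSC, where Mbp was low, it was at 34.1 and 39.4 FPKM. The call of Nrg2 ended without stroma replicate 2 (adjusted p 0.0716).

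Beside 5.1% of all genes higher and 0.977% lower, none of 6 FGF ligands was called. Of these, at an unadjusted p under 0.05, 0 were higher and 2 lower, and in the 7-library fit 0 and 0 passed, and 3 were lower without fMaSC replicate 2. Fgf10, the mesenchymal FGF needed for mammary buds, was at 6.88 and 13.4 FPKM in fMaSC and 22.5 and 25.1 FPKM in stroma (adjusted p = 0.126), and Fgf7 at 9.41 and 17.6 against 19.5 and 28.2 FPKM. Their receptor gene Fgfr2 was at 28.7 and 45.2 against 17.6 and 18.2 FPKM (adjusted p = 0.157). Of 12 receptor and response genes 3 were higher, all of them genes induced by FGF and ERK signalling: Dusp6, an ERK phosphatase, at 84.8 and 92.2 FPKM against 15 and 12.8 FPKM, and the ETS factors Etv4 at 10.4 and 10.4 against 1.04 and 0.766 FPKM and Etv5 at 19.5 and 30.5 against 6.5 and 5.27 FPKM. The call of Etv5 ended without stroma replicate 1 (adjusted p 0.0743) and those of Dusp6 and Etv5 without stroma replicate 2 (adjusted p 0.0652 to 0.146). Etv5 was not called after each library was scaled to the same sum (adjusted p 0.115).

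Wnt ligands were called on both sides, 2 higher and 2 lower of 10, beside 5.1% and 0.977% of all genes. Wnt6 stood at 6.14 and 4.79 FPKM in fMaSC and 0.734 and 0.569 FPKM in stroma and Wnt5b at 7.98 and 5.25 against 1.19 and 1.13 FPKM, while Wnt2 stood at 4.99 and 2.86 FPKM against 18.1 and 24 FPKM in stroma and Wnt10b at 0.491 and 0.382 against 3.52 and 3.85 FPKM. Wnt10b, known from the early mammary line and from pre-adipocytes, was here the higher one in stroma. Of 25 receptors, inhibitors and targets 8 were higher and none lower (median 0.47). They included the secreted inhibitors Sfrp1, at 42.1 and 55.9 against 8.02 and 5.31 FPKM, and Wif1, at 6.44 and 11.5 against 0.0989 and 1.19 FPKM. Lgr5, an R-spondin receptor and Wnt target, was at 15.4 and 18.5 FPKM in fMaSC and 3.54 and 1.34 FPKM in stroma, and the receptors Fzd6 and Fzd9 had log2 fold changes of 2.21 and 1.88. The calls of Wnt5b and Wif1 ended without stroma replicate 1 (adjusted p 0.0541 to 0.0714) and those of Wnt6, Wnt5b, Wnt2 and Lgr5 without stroma replicate 2 (adjusted p 0.0567 to 0.0958). Wnt5b was not called after each library was scaled to the same sum (adjusted p 0.102).

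In the PTHrP, BMP and TGF-beta ligand list 2 of 20 were higher and 2 lower. Pthlh, the parathyroid hormone-related protein that the mammary bud sends to its mesenchyme, stood at 45.1 and 26.6 FPKM in fMaSC and 0.765 and 1.48 FPKM in stroma (log2 fold change 4.09, adjusted p = 0.00417). Its receptor Pth1r had the opposite sign, at 3.9 and 4.8 FPKM in fMaSC and 11 and 9.15 FPKM in stroma, and did not pass (adjusted p = 0.0677). Inhbb, an activin subunit, was also higher, while Bmp2 and Bmp6 were lower, with log2 fold changes of 2.43, -1.16 and -1.26. In the receptor and response list 1 of 17 was higher, near the 5.1% of all genes, the BMP response gene Id4 (17 and 14 FPKM against 5.95 and 4.16 FPKM). The calls of Bmp2, Bmp6 and Id4 ended without stroma replicate 1 (adjusted p 0.058 to 0.257) and those of Inhbb, Bmp2, Bmp6 and Id4 without stroma replicate 2 (adjusted p 0.0606 to 0.291). Bmp2 and Id4 were not called after each library was scaled to the same sum (adjusted p 0.338 to 0.529).

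Among 14 Notch pathway genes 3 were higher and none lower. The ligand Dll1 stood at 16.1 and 22 FPKM in fMaSC and 0.744 and 0.5 FPKM in stroma (adjusted p = 0.0026), Jag2 at 3.52 and 3.81 against 0.29 and 0.216 FPKM, and the target Hey1 at 12.4 and 13.3 against 2.66 and 2.36 FPKM. The sign of the list's median, 0.20 here, turned negative when each library had the same sum. Edar, the ectodysplasin receptor of skin appendage buds, stood at 4.31 and 4.36 FPKM in fMaSC and 0.0382 and 0.0346 FPKM in stroma, and Tnfrsf11b, osteoprotegerin, a decoy receptor for RANK ligand, was lower at 1.52 and 0.538 FPKM against 5.42 and 9.37 FPKM. In the list of PDGF, HGF, IGF and Kit genes 1 of 15 was higher, near the 5.1% of all genes, Pdgfc at 29.6 and 25.8 against 2.98 and 2.54 FPKM, and 1 lower, the receptor Pdgfrb at 9.11 and 10.5 against 40.1 and 26 FPKM. Igf2, a fetal growth factor, was the most abundant of that list, at 642 and 799.5 FPKM in fMaSC and 1646 and 1612 FPKM in stroma (adjusted p = 0.397). Of 6 IGF binding proteins Igfbp2 was higher and Igfbp6, at 16.4 and 9.5 against 40.9 and 54 FPKM, was lower. The calls of Pdgfrb and Igfbp6 ended without stroma replicate 1 (adjusted p 0.0866 to 0.221) and those of Hey1, Tnfrsf11b, Pdgfrb and Igfbp6 without stroma replicate 2 (adjusted p 0.071 to 0.206). Hey1 was not called after each library was scaled to the same sum (adjusted p 0.113).

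Among guidance molecules, 3 of 18 semaphorin, plexin and neuropilin genes were higher and 2 lower. Sema3b, Sema4a and the plexin Plxnb1 had log2 fold changes of 2.41, 1.72 and 1.67, and the secreted Sema3a and Sema3c of -1.40 and -1.39. Of 17 ephrins and Eph receptors 3 were higher, the ligands Efna1 at 18.1 and 13.1 against 2.05 and 1.2 FPKM and Efna4, and the receptor Epha2. Of 11 hormone receptors 1 was called, beside 6.07% of all genes, the vitamin D receptor Vdr, at 1.22 and 1.78 FPKM in fMaSC and 0.213 and 0.2 FPKM in stroma, and the estrogen receptor Esr1 was at 1.15 and 2.23 against 4.92 and 2.68 FPKM without a call (adjusted p = 0.276). The call of Sema3c ended without fMaSC replicate 1 (adjusted p 0.051), those of Plxnb1, Sema3a, Sema3c, Efna4 and Vdr without stroma replicate 1 (adjusted p 0.0637 to 0.171) and those of Sema4a, Plxnb1, Sema3a, Sema3c, Efna4, Epha2 and Vdr without stroma replicate 2 (adjusted p 0.0989 to 0.422). Sema4a, Plxnb1, Sema3a, Efna4, Epha2 and Vdr were not called after each library was scaled to the same sum (adjusted p 0.0918 to 0.689).

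Read as ligand and receptor pairs, 33 of 40 listed pairs had both genes tested. Of the 68 genes tested in the pairs, 14 were higher and 4 lower, beside 5.1% and 0.977% of all genes. Both genes were called in 2 pairs, the ligand alone in 7, the receptor alone in 5 and neither in 19. The 2 pairs were Nrg1 with Erbb3 and Artn, artemin, with Gfra3, each with ligand and receptor higher in fMaSC. Artn stood at 7.07 and 5.46 FPKM in fMaSC and 0.803 and 1.32 FPKM in stroma. Among the single calls, the ligands Pthlh, Areg, Jag2, Edn1 and Nrtn were higher in fMaSC, as were the receptors Lgr5, Edar and Cxcr4, while the ligands Sema3a and Sema3c and the receptor Pdgfrb were lower. Cxcr4, a chemokine receptor, was at 20.1 and 22.3 FPKM in fMaSC and 4.38 and 6.18 FPKM in stroma, while its ligand Cxcl12 was at 55.1 and 94.3 against 141 and 130.1 FPKM without a call. The second Cxcl12 receptor, Ackr3, which clears the ligand, was lower in fMaSC at 8.27 and 6.84 FPKM against 22 and 33.7 FPKM. No pair had a ligand called in 1 direction and its receptor called in the other, but only 2 pairs had both genes called. In 21 of the 33 pairs the folds of ligand and receptor had opposite signs, called or not. Some genes stood in more than 1 pair and some folds lay near 0, and this count was not tested. The call of Sema3c ended without fMaSC replicate 1 (adjusted p 0.051), those of Artn, Cxcr4, Sema3a, Sema3c, Pdgfrb and Ackr3 without stroma replicate 1 (adjusted p 0.0527 to 0.221) and those of Nrtn, Lgr5, Cxcr4, Sema3a, Sema3c, Pdgfrb and Ackr3 without stroma replicate 2 (adjusted p 0.065 to 0.422). Artn, Cxcr4 and Sema3a were not called after each library was scaled to the same sum (adjusted p 0.0704 to 0.151).

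**Figure D4:**
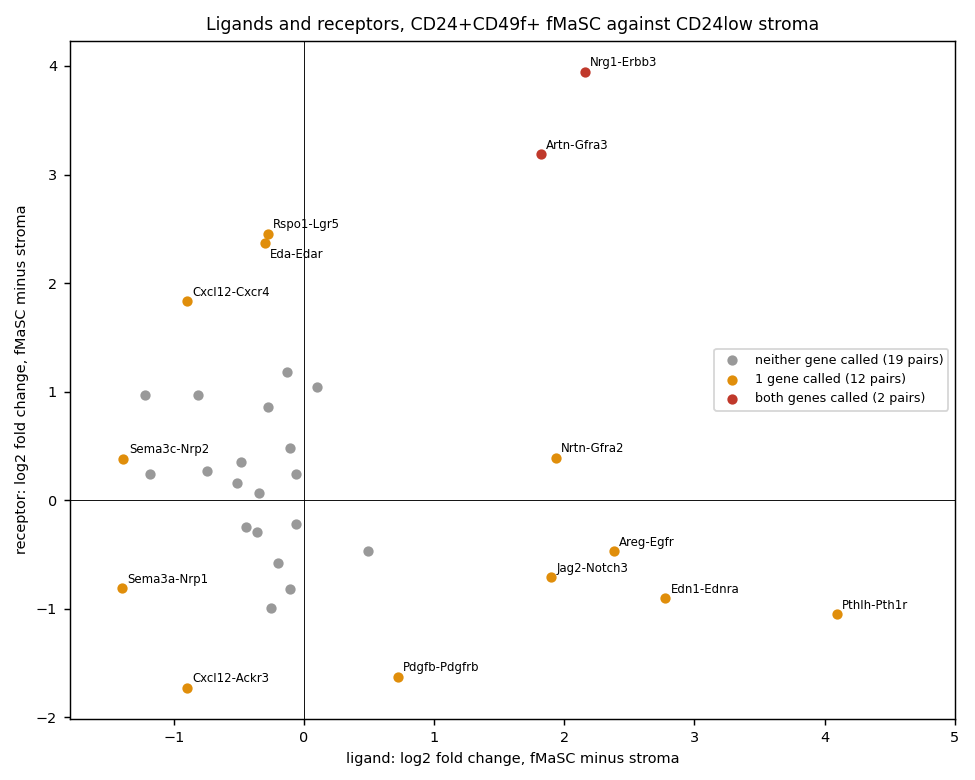
Each point is a ligand and receptor pair, with the ligand's log2 fold change (fMaSC minus stroma) on the horizontal axis and the receptor's on the vertical axis, for the 33 pairs with both genes tested. Red marks the 2 pairs with both genes called, orange the 12 with 1 gene called and grey the 19 with none, and Pthlh with Pth1r lies at the far right below 0.

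Calls among cell state genes are to be read against the 5.1% higher and 0.977% lower over all genes. None of 23 cell cycle genes was called (median 0.39), with Top2a, a gene of dividing cells, at 45 and 78.7 FPKM in fMaSC and 35.8 and 42.7 FPKM in stroma. In that list, at an unadjusted p under 0.05, 1 were higher and 1 lower, and in the 7-library fit 1 and 1 passed. None of 16 immediate early genes, which tissue dissociation can induce, was called (median -0.35). There, at an unadjusted p under 0.05, 1 were higher and 0 lower, and in the 7-library fit 1 and 0 passed. Egr1 was at 426 and 756 FPKM in fMaSC and 1116 and 974 FPKM in stroma. Of 17 glycolysis genes 2 were higher. Aldoc, an aldolase, stood at 56.7 and 54.3 FPKM in fMaSC and 0.505 and 1.09 FPKM in stroma, and Pkm, pyruvate kinase, at 202 and 214 against 66.4 and 57 FPKM. None of 12 reference genes was called, and at an unadjusted p under 0.05, 2 were higher and 0 lower, and in the 7-library fit 0 and 0 passed. Gapdh was at 90.5 and 60.4 FPKM in fMaSC and 32.3 and 38.5 FPKM in stroma (log2 fold change 1.05). The call of Pkm ended without stroma replicate 1 or stroma replicate 2 (adjusted p 0.29 and 0.446).

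The 2 libraries of a group differed by transcript length. Among protein-coding genes with transcripts up to 1000 bases the median log2 difference was 0.92 between fMaSC replicates 1 and 2 and -0.43 between stroma replicates 1 and 2. Among those longer than 8000 bases it was -0.66 and 0.34. The sign of these differences is set by the replicate numbers, which pair no samples, so the directions of the 2 groups cannot be compared. The fold between groups depended less on length, with medians of 0.33 for the shortest class and 0.06 for the longest. The 76 ribosomal protein genes, which are short, summed to 40584 and 16031 FPKM in fMaSC and 12062 and 22066 FPKM in stroma, and 0 of them were called. Across genes, which are not independent replicates, log2 levels correlated with Pearson's r of 0.936 between the fMaSC libraries and 0.968 between the stroma libraries. The 8 genes of 10 FPKM or more that differed most between the fMaSC libraries were small RNA annotations of 107 to 130 bases, each listed at 0 in 1 of the 2 libraries. In stroma the same rule gave 8 annotations of 107 to 141 bases, small RNAs and 1 pseudogene, also each at 0 in 1 library.

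**Figure D5:**
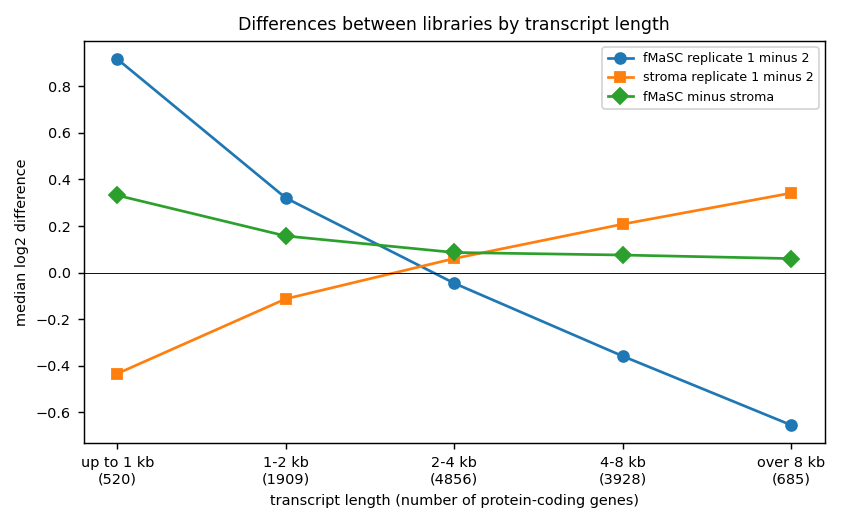
Median log2 difference of protein-coding genes in 5 classes of transcript length, for fMaSC replicate 1 minus 2, stroma replicate 1 minus 2, and fMaSC minus stroma. The line of the fMaSC pair falls from 0.92 to -0.66 and that of the stroma pair rises from -0.43 to 0.34, while the line between groups stays between 0.06 and 0.33. Whether a replicate line falls or rises is set by the order of deposit.

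The fold between fMaSC and stroma was then set beside that of the Sox10 and EpCAM sort in 1 limma fit of all 7 libraries. The 2 folds differed for 237 of 13815 genes (1.72%), with the CD24 fold higher in 230 (1.66%) and lower in 7 (0.0507%). This number held in none of the 6 fits without 1 library: it was 3 without stroma replicate 1, 3 without stroma replicate 2, 4 without Sox10+EpCAM+ fMaSC replicate 1 and 4 without replicate 2, but 1105 without CD24+CD49f+ fMaSC replicate 1 and 457 without replicate 2. Matrix genes led the named ones. Col6a2, a chain of collagen VI, had a log2 fold of -1.17 in the CD24 sort and -7.03 in the other, a difference of 5.85 (adjusted p = 0.0154), and Col6a1 and Col6a3 differed by 5.76 and 5.73. Its FPKM were 122 and 194 in CD24+CD49f+ fMaSC and 444 and 273 in the stroma of that sort, against 2.47 and 3.36 in Sox10+EpCAM+ fMaSC with 506 in EpCAM-negative stroma. Col1a2 and Clec3b, tetranectin, differed by 5.51 and 5.52. Of the 15 collagen genes 10 differed, and of 22 mesenchymal transcription factors 11. The epithelial lists, cartilage-type matrix included, held 1 such gene, Matn2, a matrilin, which was at 35.8 and 33.6 FPKM in the CD24+CD49f+ libraries, 37.9 and 36.1 in the CD24low libraries and 3.49 and 6.28 in Sox10+EpCAM+ fMaSC.

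The 7 genes whose CD24 fold was the lower one included Pglyrp1, a peptidoglycan-binding protein, Slc15a2, a peptide transporter, Fosl1, an AP-1 factor, and the histone gene Hist2h2be. Fosl1 stood at 15.8 and 15.9 FPKM in CD24+CD49f+ fMaSC and 4.17 and 4.24 FPKM in CD24low stroma, and in the other sort at 34.7 and 35.8 FPKM in fMaSC and 3.05 FPKM in stroma, a difference of the folds of -1.47 (adjusted p = 0.0487). Slc15a2 was at 12.5 and 12.2 FPKM in CD24+CD49f+ fMaSC and 25.3 and 26.6 FPKM in Sox10+EpCAM+ fMaSC. The 7 fibroblast markers, all listed above 0 in all 7 libraries, summed to 2213 and 3429 FPKM in the CD24+CD49f+ libraries, 7552 and 7179 in the CD24low ones, 46.4 and 75.7 in Sox10+EpCAM+ fMaSC and 6394 in EpCAM-negative stroma. The part of fibroblasts in the stromal folds was not tested. The EpCAM-negative group is 1 library, so its variance was taken from the other groups.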

How the data were processed

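RNA was measured by RNA-seq in sorted cells of mouse embryos. The authors deposited FPKM values per gene, 1 table for all 7 libraries. STAR, Cufflinks and the builds GRCm38 and mm10 are named per the submitters' processing notes, and their versions are not given in the sources used here. Libraries were made with Illumina TruSeq RNA kits and read as paired ends, per the labels' protocols. FPKM carry no counts, so no count test was run, and the precision given by depth is known only approximately.

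Genes with at least 1 FPKM in at least 2 of the 4 libraries were tested on log2(FPKM + 1) with limma (eBayes with a trend, 2 residual degrees of freedom) and Benjamini-Hochberg adjustment at 0.05. The difference between the sorts was 1 contrast in a fit of all 7 libraries (3 residual degrees of freedom). The fit was tested on simulated data. Replicate numbers follow the order of deposit and pair no samples. Names came from GENCODE, matching 36664 of 38579 entries (95.0%), and start site windows from RefSeq GRCm38.p6. The text names the 15 genes with the largest folds in each direction (called, 5 FPKM or more in a group, no provisional name), up to 6 genes of each list by size of fold, and others chosen after their values were seen. The members and the gene lists were chosen with earlier results of these data known. Alternatives were other pseudocounts, filters, scalings, fits and libraries left out. Some results are not reported here.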

Additional observations from a re-analysis of the deposited data

Results flagged for a closer look

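The fold between fMaSC and stroma differed between the CD24 sort and the Sox10 and EpCAM sort for 237 genes in limma's test of the difference itself, which is why these genes are given here. Values in brackets are the CD24 log2 fold minus the other. Of all such genes, the largest positive differences were those of Gm16265 (13.85), Rnu11 (8.74), Gm26397 (6.43), Col6a2 (5.85), Col6a1 (5.76), Col6a3 (5.73), Clec3b (5.52) and Col1a2 (5.51), and the negative ones those of Gm25541 (-7.86), Gm24451 (-3.46), Hist2h2be (-2.47), Gm10863 (-2.07), Pglyrp1 (-1.97), Slc15a2 (-1.82) and Fosl1 (-1.47). Gm16265, Rnu11, Gm26397, Gm25541, Gm24451 and Gm10863 are small RNA or provisional annotations. Among the genes named in the text, Cdh19 (1.78), Cd79a (1.91), Gfra3 (2.34), Matn2 (2.50), Pth1r (2.69), Plin1 (2.70), Igfbp6 (2.94), Efemp1 (3.06) and Loxl1 (3.23) also differed. Further differences were those of Fgf10 (3.24), Zeb1 (3.25), Pparg (3.28), Pdgfrb (3.46), Cd34 (3.55), Twist2 (3.62), Pmp22 (3.68), Emilin2 (3.94) and Cxcl12 (4.29). Further differences were those of Lum (4.32), Igf2 (4.66), Dcn (4.80), Lpl (5.03), Col3a1 (5.32) and Col1a1 (5.51). Most of these are matrix, adipocyte and mesenchymal genes, whose level in Sox10+EpCAM+ fMaSC was low, and the number that passed fell to 3 or 4 when a stroma library or a Sox10+EpCAM+ library was left out.

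Outside the gene measurements, a spliced GFP sequence listed in the deposited table stood at 202 and 211 FPKM in the 2 Sox10+EpCAM+ fMaSC libraries. By their labels these are the libraries of cells isolated as Sox10-Venus+. The sequence was at 0.66 FPKM in EpCAM-negative stroma and 0.131 FPKM or less in the 4 libraries of the CD24 sort. Groups of 2 libraries are too small for a test of single outlying samples.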

How the results depend on the processing

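The count of 839 called genes was 144 without a filter, 419 with a filter at 5 FPKM, 1495 in a fit of all 7 libraries, and from 310 to 1736 with 1 library left out. With the lineage spelling in the titles as a replicate block it was 927, and with the crossed block, chosen after seeing the data, 2559. With the crossed block the number lower was 12 among the collagens, 9 among the small leucine-rich proteoglycans, 12 among the remodelling enzymes and 10 among the mesenchymal factors, each 0 with the deposited values and no block, and with the lineage spelling as the block 5 erythroid genes were higher. Nothing in the labels says that this spelling pairs libraries. Scaled to the same sum without mitochondrial genes and globins, also chosen after seeing the data, the count of called genes was 763. The count of 237 genes that differed between the sorts was 395 with a pseudocount of 0.25, 41 with each library at the same sum, 97 after quantile scaling, and from 3 to 1105 with 1 library left out. Of 138 named genes that were called, 48 were called under every alternative that tested them and 82 in every fit without 1 library. Calls ended for 88 of them without a filter, 18 with each library at the same sum, 11 without the trend and 8 with a pseudocount of 5, and the causes were not tested. The log2 fold change of Egfr, which was not called, changed sign, ranging from -1.04 to 0.10 with 1 library left out. The log2 fold change of Snai1, which was not called, changed sign, ranging from -1.25 to 0.0897 with 1 library left out. The log2 fold change of Sox9, which was not called, changed sign, ranging from -0.0372 to 0.91 with 1 library left out. The medians of the Notch, hedgehog, ectodysplasin and RANK, melanoblast, macrophage marker and reference gene lists changed sign under at least 1 scaling. Depth limits genes near 1 FPKM, and with 2 libraries a group and FPKM alone its effect on single genes is not known.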
